A study of Mus musculus with 8 samples.

Results

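The killer lectin-like receptors described here are Klrk1, Klrd1, Klrc1, Klrc2, Klre1, Klrb1c, Klrb1f and Klrg1, chosen by symbol, 8 genes of the 31815 in the count table. RNA was sequenced from CD8+ T cells of the spleens of OTI mice (C57BL/6-Tg(TcraTcrb)1100Mjb/J), which carry a transgenic T cell receptor for an ovalbumin peptide. Naive cells were cultured with that peptide for 3 days, received a vector at 24 h and were sorted on day 5, per the series' design text. There were 4 groups of 2 libraries: TOXFL-negative and TOXFL-positive cells, from cultures given a vector for the full-length nuclear protein TOX, and TOXdeltaN-negative and TOXdeltaN-positive cells, from cultures given a vector for TOXdeltaN. Positive cells were the brightest 20% for the GFP that the same vector encoded behind an internal ribosome entry site, and negative cells came from the same kind of culture without GFP. Presence of the vector, the gate on GFP and the TOX protein therefore cannot be told apart, and cells with a vector for GFP alone were not analysed here. Separate animals or cultures are not named for the 2 libraries within a group, so p-values here cover the spread between libraries alone, and that spread may be technical.

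Killer lectin-like receptors are C-type lectin-like surface proteins first known from natural killer (NK) cells and also made by activated CD8 T cells. NKG2D, the product of Klrk1, is an activating receptor that signals through the adaptor DAP10 (Hcst) and, in mice, also through DAP12 (Tyrobp). CD94, the product of Klrd1, reaches the surface as a partner of the inhibitory NKG2A (Klrc1) or the activating NKG2C (Klrc2), and these pairs bind the non-classical class I molecule Qa-1 (H2-T23). Klrg1 encodes an inhibitory receptor for cadherins that marks terminal effector T cells. Klrb1c encodes the NK1.1 antigen, Klrb1f a receptor of the same subfamily that binds Clec2 proteins, and Klre1 a receptor that pairs with the Klri proteins.

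The libraries held 25059112 to 31240067 counts, and Tox, which both vectors supply, checked the GFP labels. It cannot tell TOXFL from TOXdeltaN, so the construct labels were not checked. In CPM (counts scaled to the library total with TMM factors), Tox in TOXFL cultures went from 25.05 and 34.37 without GFP to 104.8 and 126.3 with GFP. In TOXdeltaN cultures it went from 21.8 and 32.16 to 107.2 and 82.9, and positive and negative libraries did not overlap for either construct. The labelled cell type was met: 5 CD8 T cell markers (Cd3e, Cd3d, Cd3g, Cd8a and Cd8b1) summed to 3037 to 3511 CPM. Of these, Cd8b1 was lower in GFP-positive cells for the mean of both constructs with the library number as a block (log2 -0.31, adjusted p = 0.00611). All 10 NK cell markers together summed to 13.63 to 19.2 CPM over the 8 libraries, most of it Klri2 (mean 8.616 CPM) and Eomes (mean 5.048 CPM). Of the other markers, Ncr1 (0 to 4 counts), Klra4 (0 to 2 counts), Klra8 (0 to 2 counts) and Klra9 (0 to 1 count) were at or near 0. Traces were found of Itga2 (18 to 61 counts), Fcgr3 (0 to 19), Tyrobp (2 to 16) and Klrb1b (0 to 15). In bulk RNA, fewer cells of a type and less RNA per cell cannot be told apart.

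Klrc1, Klrc2 and Klrc3 are near-copies, and how the reads of such genes are shared out bears on their counts. The coding sequences of Klrc1 (732 bases) and Klrc2 (714 bases) in the GENCODE M21 transcripts were identical at 83.05% of aligned positions. Klrc3, which had 0 to 9 counts, was identical at 85.52% of aligned positions with Klrc1 and 95.32% with Klrc2. These shares leave out gaps, which took 18 columns for Klrc1 and Klrc2, 69 for Klrc1 and Klrc3 and 51 for Klrc2 and Klrc3. Which of the 2 genes is closer to Klrc1 therefore depends on how gaps are counted. Of all 50-base words in the Klrc1 transcripts, 36.55% also occurred in Klrc2 transcripts. The stretch of 150 bases shown here is where Klrc1 and Klrc2, the described receptors, are most alike, and capitals mark the 3 bases that differ. It covers coding bases 363 to 512 of Klrc1 and 345 to 494 of Klrc2.
Klrc1: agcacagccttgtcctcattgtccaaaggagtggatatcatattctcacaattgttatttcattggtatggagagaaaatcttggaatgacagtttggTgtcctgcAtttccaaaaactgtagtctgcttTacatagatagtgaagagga
Klrc2: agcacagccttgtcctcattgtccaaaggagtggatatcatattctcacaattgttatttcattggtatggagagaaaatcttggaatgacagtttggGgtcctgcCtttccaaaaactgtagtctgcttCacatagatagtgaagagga
The values of both genes are estimates that depend on the authors' allocation of shared reads, and so does any small change of Klrc2 beside the far more abundant Klrc1. Klrb1c shares 413 exon bases on the same strand with Gm44511, which had 0 to 6 counts. No 50-base word of Klrk1, Klrd1, Klrb1f or Klrg1 occurred in another gene.

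Klrk1, Klrd1 and Klrc1 made up nearly all of the receptor RNA, with 98.76% to 99.11% of the summed CPM of the 8 genes in each library. Compared per length (CPM per kb of mean annotated coding transcript), Klrd1 stood highest, at 396 ± 55.6 (SD, n = 8 libraries), followed by Klrk1 at 201.4 ± 33.2 and Klrc1 at 57.58 ± 7.09. The ranges of these 3 genes did not overlap, and Klrd1 exceeded Klrk1 in 8 of 8 libraries, by 1.51 to 2.19 times, and Klrc1 by 6 to 7.64 times. The size of these ratios depends on the length used. Per kb of union exon length the means were 247.3 for Klrd1, 51.27 for Klrk1, 30.23 for Klrc1 and 0.3966 for Klrc2, in the same order, while in CPM, without length, Klrk1 (368.3 ± 60.8) lay above Klrd1 (316.8 ± 44.5).

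A wide gap separated these genes from the rest. Per length, Klre1 lay at 2.423 ± 0.444 CPM per kb, Klrc2 at 1.778 ± 0.523, Klrb1f at 1.533 ± 0.309 and Klrb1c at 0.5752 ± 0.289 (SD, n = 8). Neighbours in this lower order were not separated beyond their spread, since the ranges of Klre1 (1.93 to 3.151) and Klrc2 (0.8711 to 2.445), of Klrc2 and Klrb1f (0.9774 to 2.026) and of Klrb1f and Klrb1c (0.2382 to 1.228) overlapped. Klrc1 exceeded Klrc2 by 22.1 to 57.7 times per kb of coding transcript, so the inhibitory partner of CD94 was the more abundant in 8 of 8 libraries.

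Klrg1 was too low to test. It had 2 counts in TOXFL-positive replicate 2 and 0 in the other 7 libraries, where 0 counts allow a level of up to 0.1007 to 0.1199 CPM (3 counts of the library total, counting error only). The other 7 receptors passed the filter on low counts. Of these, Klrb1c rested on 11 to 52 counts per library, Klrb1f on 32 to 62, Klrc2 on 33 to 101 and Klre1 on 67 to 110, so their changes were measured with much wider error than those of Klrk1, Klrd1 and Klrc1 (1281 counts or more).

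**Figure D1:**
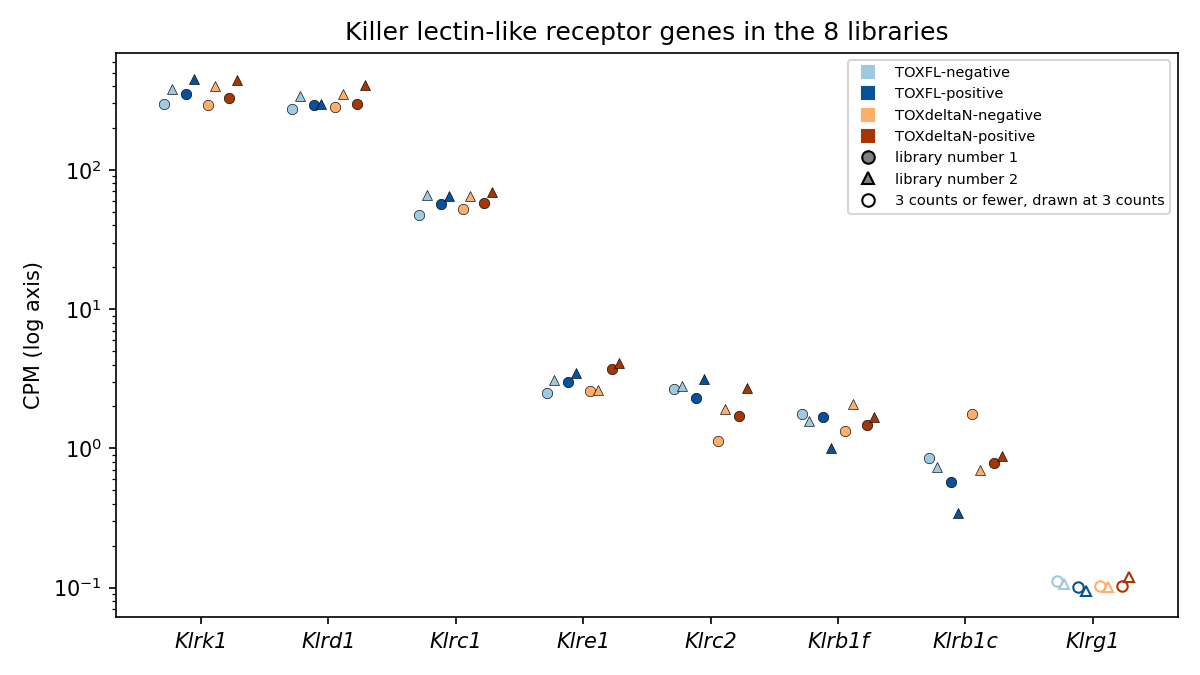
CPM on a log axis for the 8 receptor genes, with 1 point per library; colour gives the group and shape the library number, and open points stand for 3 counts or fewer, drawn at the level of 3 counts. Klrk1, Klrd1 and Klrc1 lie between 47.76 and 452.1 CPM, the next 4 genes between 0.3452 and 4.077 CPM, and Klrg1 at the floor.

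The first question was whether the receptors differed between cells with and without each vector. In the edgeR quasi-likelihood test with p-values adjusted by Benjamini-Hochberg across 13329 tested genes, 0 of 7 receptors passed an adjusted p of 0.05 for TOXFL-positive against TOXFL-negative cells, where 0.045% of all tested genes passed. It was also 0 of 7 for TOXdeltaN (0.03% of all tested genes) and 0 of 7 for the mean of both constructs (2.42%). The unadjusted p lay under 0.05 for 0 of 7 receptors in each of these comparisons, beside 1790, 1632 and 2920 of all tested genes, and DESeq2 called 0 of 7 in each, beside 314, 121 and 1058 genes in all. The median log2 change of the 7 receptors was -0.01 with TOXFL, 0.14 with TOXdeltaN and 0.11 for the mean, against medians of 0.00, 0.01 and 0.00 over all tested genes. Libraries of the same number departed from their group means together, so a fit with the library number as a block was made beside this one, and it called 0 of 7 receptors for TOXFL (3.48% of all tested genes), 0 of 7 for TOXdeltaN (1.65%) and 1, Klrk1, for the mean of both constructs. At an unadjusted p under 0.05 the blocked fit had 1 of 7 receptors for TOXFL (Klrk1) and 1 of 7 for TOXdeltaN (Klre1), beside 2576 and 2574 of the 13329 tested genes, so this is no more than the background.

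In TOXFL cultures Klrk1 gave 298.9 and 381.8 CPM in GFP-negative cells (numbers 1 and 2, the order used throughout) and 350.4 and 452.1 in GFP-positive cells. In TOXdeltaN cultures it gave 293.8 and 402.2 CPM in GFP-negative and 327 and 439.9 in GFP-positive cells. The negative and positive libraries overlapped for each construct, but within each number the positive library was the higher: 1.172 and 1.184 times with TOXFL, 1.113 and 1.094 times with TOXdeltaN. For the mean of both constructs the blocked fit gave a fold of 1.14 (95% interval 1.05 to 1.24, log2 0.19, SE 0.0522, adjusted p = 0.0425, higher in 4 of 4 same-numbered pairs). That fit called 12.7% of all tested genes, 6.04% of them higher in positive cells, so a call is common in it. Without the block the same fold of 1.14 had a 95% interval of 0.913 to 1.42 and an adjusted p of 0.468. The blocked call held in 2 of 8 omissions of a library, those of TOXdeltaN-positive replicates 1 and 2 (adjusted p = 0.00519 and 0.0164). It was lost without TOXFL-negative replicate 1 (0.139) or 2 (0.218), TOXFL-positive replicate 1 (0.138) or 2 (0.0852), or TOXdeltaN-negative replicate 1 (0.23) or 2 (0.193).

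Klrd1 in TOXFL cultures gave 272.2 and 337.4 CPM in GFP-negative and 292.4 and 299.6 in GFP-positive cells. Klrd1 in TOXdeltaN cultures gave 281.8 and 351.9 CPM in GFP-negative and 295 and 404.2 in GFP-positive cells. Negative and positive libraries overlapped for both constructs. The fold was 0.9711 with TOXFL (95% interval 0.749 to 1.26, adjusted p = 0.937) and 1.103 with TOXdeltaN (0.851 to 1.43, adjusted p = 0.743), and these intervals bound what a change of the CD94 message could be without the block.

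Klrc1 in TOXFL cultures gave 47.76 and 65.61 CPM in GFP-negative and 56.95 and 64.99 in GFP-positive cells, and in TOXdeltaN cultures 52.39 and 65.13 against 58.1 and 68.83. These groups overlapped too, with folds of 1.076 with TOXFL (95% interval 0.825 to 1.4) and 1.08 with TOXdeltaN (0.829 to 1.41) and adjusted p of 0.832 and 0.807. Klrc2, its activating near-copy, gave 2.684 and 2.817 CPM in GFP-negative and 2.301 and 3.17 in GFP-positive cells of TOXFL cultures, and 1.129 and 1.914 against 1.709 and 2.718 in TOXdeltaN cultures. The groups overlapped for each construct. Its folds were 0.995 (95% interval 0.547 to 1.81) and 1.449 (0.78 to 2.69), with adjusted p of 0.997 and 0.588. A rise of the NKG2A message above 1.41-fold or of the NKG2C message above 2.69-fold lay outside the intervals of both comparisons.

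**Figure D2:**
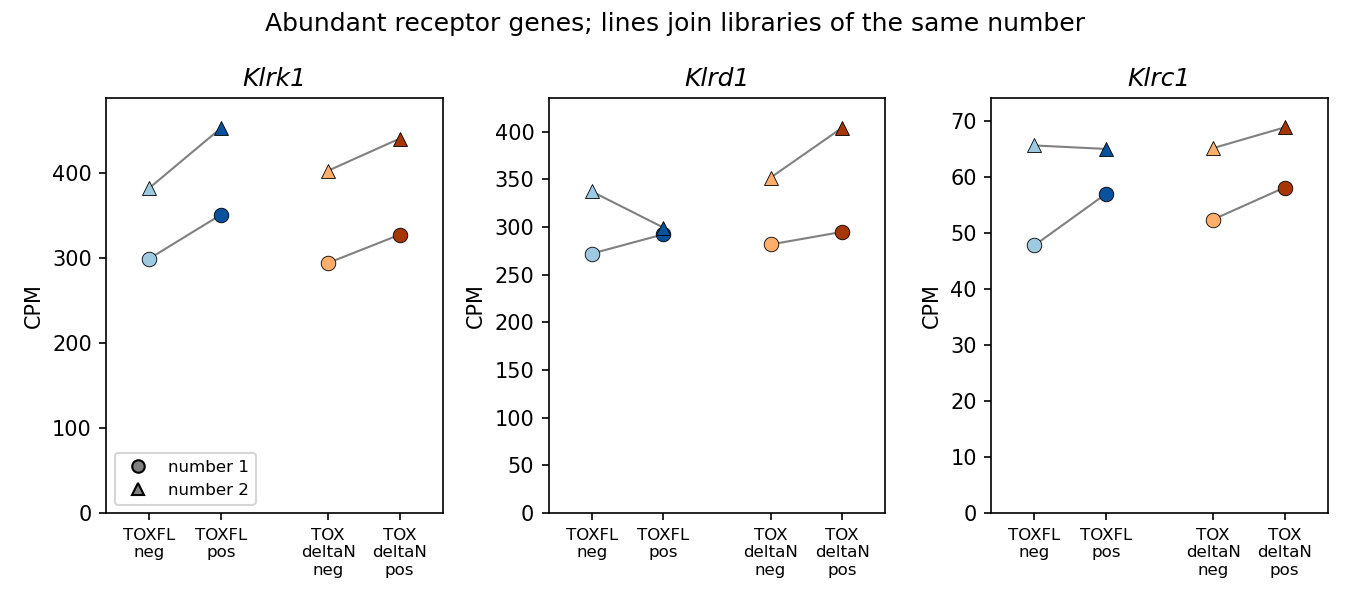
CPM of Klrk1, Klrd1 and Klrc1 on axes from 0, with 1 point per library, neg and pos for GFP-negative and GFP-positive cells, and grey lines joining libraries of the same number. All 4 Klrk1 lines go up, and number 2 lies above number 1 in every group for the 3 genes.

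Klre1 was the receptor with separated groups for TOXdeltaN, at 2.601 and 2.619 CPM in the negative and 3.725 and 4.077 in the positive libraries. With TOXFL it lay at 2.498 and 3.099 CPM in negative and 3.012 and 3.452 in positive cells, which overlapped. The TOXdeltaN fold was 1.493 (95% interval 0.976 to 2.29, log2 0.58, SE 0.273, adjusted p = 0.425, and 0.258 with the block), so it did not pass. Of the partners of Klre1, Klri1 had 0 counts in every library and Klri2 lay at 7.877 to 9.333 CPM.

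Klrb1c, the NK1.1 gene, gave 0.8574 and 0.7395 CPM in GFP-negative and 0.5752 and 0.3452 in GFP-positive cells of TOXFL cultures, which did not overlap. In TOXdeltaN cultures it gave 1.779 and 0.705 CPM without GFP and 0.786 and 0.8794 with GFP, and both positive values fell between the negative ones. The TOXFL fold was 0.5773 (95% interval 0.229 to 1.46, adjusted p = 0.607). Klrb1f gave 1.752 and 1.585 CPM in GFP-negative and 1.692 and 1.004 in GFP-positive cells of TOXFL cultures, and 1.335 and 2.082 against 1.47 and 1.679 in TOXdeltaN cultures. Its groups overlapped for both constructs, with adjusted p of 0.797 and 0.926.

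Groups that do not overlap are common with 2 libraries on each side. That held for 1 of 7 receptors (14.3%) with TOXFL against 50.4% of all tested genes, and for 1 of 7 with TOXdeltaN against 42% of all tested genes. The receptors therefore showed separated groups no more often than the background.

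**Figure D3:**
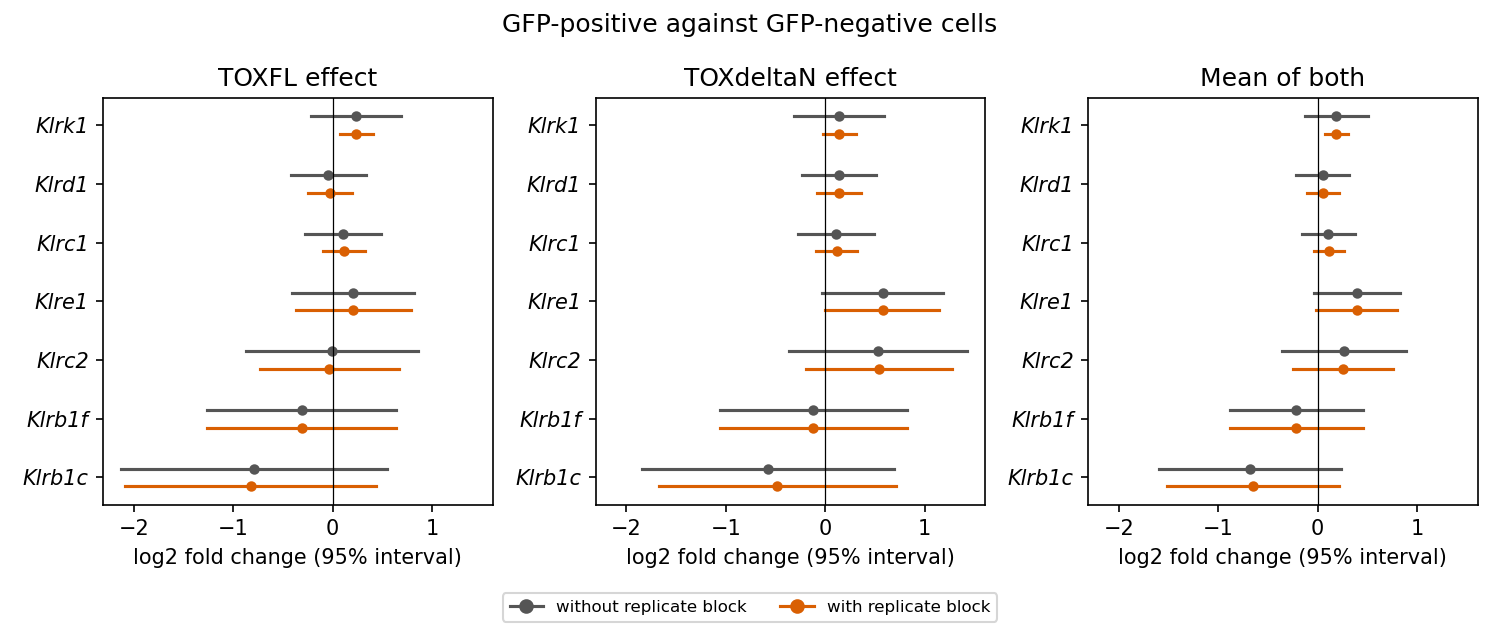
Log2 fold change of the 7 tested receptors between GFP-positive and GFP-negative cells, with 95% intervals, for TOXFL, TOXdeltaN and their mean, without (grey) and with (orange) the library number as a block. Intervals narrow with the block for the abundant genes; for the mean, Klrk1 runs from 0.07 to 0.31 with the block and from -0.13 to 0.51 without it.

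Whether the constructs differed in their effect was tested directly. Of the 7 receptors, 0 passed for the TOXFL effect minus the TOXdeltaN effect, as did 0% of all tested genes, and the unadjusted p lay under 0.05 for 0 of 7 receptors and 318 of all tested genes. DESeq2 called 0 receptors and 7 genes in all. The differences of the log2 effects ran from -0.54 for Klrc2 (95% interval -1.78 to 0.70) to 0.10 for Klrk1 (-0.54 to 0.74). The intervals leave room for differences of either sign.

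The GFP-negative cells of the TOXFL and TOXdeltaN cultures were compared as a control. Again 0 of 7 receptors passed, as did 0% of all tested genes, with an unadjusted p under 0.05 for 0 of 7 receptors and 328 genes, and DESeq2 called 0 receptors and 8 genes. Klrc2 was separated, at 2.684 and 2.817 CPM in TOXFL-negative against 1.129 and 1.914 in TOXdeltaN-negative cells, as 33.5% of all tested genes were. Its log2 difference of 0.85 (SE 0.395) had an unadjusted p of 0.0582 (0.021 with the block) and an adjusted p of 1.

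Several of these receptors differed with the library number. Number 2 exceeded number 1 in all 4 groups for 5 of 7 tested receptors (Klrk1, Klrd1, Klrc1, Klrc2 and Klre1, 71.4%), a pattern shown by 13% of all tested genes. In the blocked fit Klrk1 was higher in number 2 by a fold of 1.32 (95% interval 1.22 to 1.43, adjusted p = 0.00373) and by 1.277 to 1.369 times within the groups. Klrc1 was higher by 1.232 (1.11 to 1.37, adjusted p = 0.0421), and Klrd1 by 1.214 without passing (adjusted p = 0.068). Klrc2 (fold 1.393, adjusted p = 0.316) and Klre1 (fold 1.119, adjusted p = 0.698) did not pass either. The smallest ratio of number 2 to number 1 within a group was 1.05 for Klrc2 and 1.007 for Klre1. So 2 of 7 receptors passed, against 3.02% of all tested genes, 1.26% of them higher in number 2. What the number stands for is not labelled.

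These calls also depended on single libraries. The Klrk1 call was lost without TOXdeltaN-negative replicate 1 (adjusted p = 0.0694) or replicate 2 (0.0708) and held in the other 6 omissions. The Klrc1 call held in 2 of 8 omissions, those of TOXdeltaN-positive replicates 1 and 2 (0.0189 and 0.02). It was lost without TOXFL-negative replicates 1 and 2 (0.213 and 0.212), TOXFL-positive replicates 1 and 2 (0.0914 and 0.0894) and TOXdeltaN-negative replicates 1 and 2 (0.223 and 0.225).

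Traces of other genes followed the number in the opposite direction. Cd4, the coreceptor of helper T cells, had 21 to 36 counts in the 4 libraries numbered 1 and 0 to 1 in those numbered 2 (adjusted p = 0.00341). Sox13, a factor of gamma-delta T cells, had 67 to 105 counts in number 1 and 7 to 32 in number 2 (adjusted p = 0.00997). Cd4 was the 1 of 4 tested CD4 T cell markers to pass by number. The log2 differences of these markers ran from -6.23 to 0.442, so they did not all go the same way. The summed CD4 T cell markers lay between 2.115 and 5.544 CPM, and their part in the receptor difference was not tested.

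Across the 8 libraries the genes whose log2 CPM followed Klrk1 best among 9053 genes of at least 8 CPM were Nr4a2 (Pearson r = 0.9893), Klhdc10 (0.9861) and Cnn3 (0.9824). For Klrd1 they were Zap70 (0.97), Hes6 (0.9678) and Ncl (0.9642), and for Klrc1 they were St13 (0.9708), Prkcsh (0.9678) and Sept7 (0.9641). Among the receptors, r was 0.9132 for Klrk1 and Klrc1, 0.8356 for Klrc1 and Klrd1 and 0.7284 for Klrk1 and Klrd1. Many other genes followed each receptor more closely. Of the 9053 genes, Klrc1 ranked 87 and Klrd1 816 for Klrk1, and Klrk1 ranked 62 and Klrd1 247 for Klrc1. These are descriptions over 8 points that share library depth, group and number.

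All 8 genes lie on chromosome 6 (GRCm38, GENCODE M21), 7 of them between 128778485 and 129678973, a span that is part of the larger NK gene complex, and Klrg1 apart at 122270596 to 122282882. Klre1 (129577905 to 129585827), Klrd1 (129591782 to 129598775), Klrk1 (129610323 to 129623864), Klrc2 (129647496 to 129660689) and Klrc1 (129666015 to 129678973) follow each other, with gaps of 5.95 kb, 11.5 kb, 23.6 kb and 5.33 kb in that order. Klrc3 (0 to 9 counts) lies in the gap between Klrk1 and Klrc2. Klrb1c (128778485 to 128789215) and Klrb1f (129045901 to 129057464) lie further off. Along this row Klre1 was low, Klrd1 and Klrk1 high, Klrc3 and Klrc2 low and Klrc1 high, in CPM. This span of 900.5 kb holds 33 genes of the table, of which 17 were tested and 5 had 0 counts in every library. Of the 10 tested genes in it that are not among the receptors described, Clec2d and Clec2i were called for the mean of both constructs in the blocked fit, both lower in GFP-positive cells, where 6.69% of all tested genes were called lower. Clec2i did not pass without the block (adjusted p = 0.0681).

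**Figure D4:**
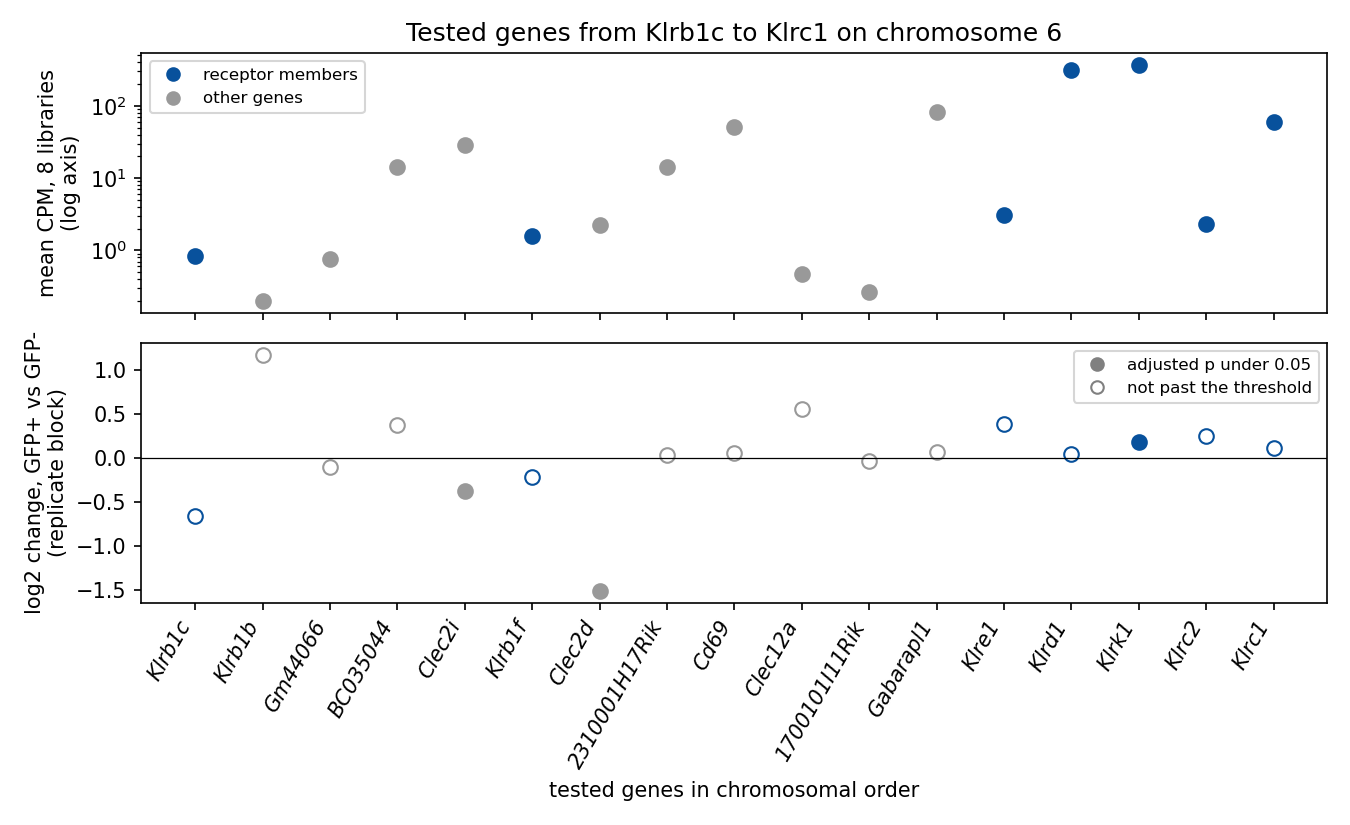
The 17 tested genes from Klrb1c to Klrc1 in chromosomal order: mean CPM over the 8 libraries on a log axis (top) and log2 change between GFP-positive and GFP-negative cells for the mean of both constructs in the blocked fit (bottom), receptors in blue. Filled points in the lower panel passed an adjusted p of 0.05: Klrk1 above 0 and Clec2i and Clec2d below it.

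Promoter sequence was taken from RefSeq (GRCm38.p6) as the 250 bases before the RefSeq transcript start, and 6 of the 8 genes had an entry. This start can lie inside the gene as annotated by GENCODE. The Klrc2 stretch runs into the GENCODE gene, which ends at 129660689, and both of its RUNX matches lie inside that gene. The stretches of Klrb1c (128788642 to 128788891) and Klre1 (129577963 to 129578212) lie wholly inside their GENCODE genes. The promoters of Klrk1 and Klrc1, the receptors that passed for library number, and of Klrc2, the low near-copy beside Klrc1, are shown with matches to the RUNX core TGTGGT on either strand in capitals.
Klrk1, chr6:129623865-129624114, minus strand: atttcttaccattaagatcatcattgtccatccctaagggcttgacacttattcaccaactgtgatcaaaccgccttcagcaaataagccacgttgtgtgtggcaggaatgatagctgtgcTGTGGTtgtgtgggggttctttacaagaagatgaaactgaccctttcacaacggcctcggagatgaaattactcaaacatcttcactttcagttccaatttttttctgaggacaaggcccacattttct
Klrc1, chr6:129678974-129679223, minus strand: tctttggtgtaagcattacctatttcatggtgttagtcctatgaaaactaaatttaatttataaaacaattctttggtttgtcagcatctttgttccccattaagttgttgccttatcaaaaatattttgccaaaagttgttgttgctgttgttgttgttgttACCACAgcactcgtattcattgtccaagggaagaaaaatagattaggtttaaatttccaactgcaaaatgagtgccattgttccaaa
Klrc2, chr6:129660597-129660846, minus strand: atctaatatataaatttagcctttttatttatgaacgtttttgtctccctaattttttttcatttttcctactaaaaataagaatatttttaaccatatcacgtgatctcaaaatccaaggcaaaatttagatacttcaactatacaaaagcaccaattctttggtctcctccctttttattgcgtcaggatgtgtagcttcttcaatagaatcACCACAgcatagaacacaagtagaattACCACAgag
The RUNX core was found in 5 of the 6 promoters, all but that of Klrb1f, and in 14% of 32851 RefSeq promoters of this length. The T-box core GGTGTGA was found in 0 of 6 (3.33% of all) and the AP-1 site TGANTCA in 0 of 6 (6.75% of all), on either strand. A match describes letters and not a bound site, and the promoters of the abundant Klrc1 and the low Klrc2 both held RUNX cores.

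The genes around these receptors in the pathway were described next, for the mean of both constructs unless stated. Among the signalling partners, Lck (mean 1242 CPM), Pik3cd (948) and the phosphatase Ptpn6 (586.4), which acts behind inhibitory receptors, were the most abundant. Ptpn6 was the 1 of 14 tested signalling genes to pass by library number, higher in number 2, as 1.26% of all tested genes were. Hcst, whose product DAP10 carries the NKG2D signal, lay at 79.41 and 66.1 CPM in GFP-negative and 68.72 and 44.91 in GFP-positive cells of TOXFL cultures and at 75.76 and 63.25 against 67.84 and 69.51 in TOXdeltaN cultures, which overlapped (log2 -0.19, adjusted p = 0.432). Tyrobp had 2 to 16 counts and Fcer1g 0 to 8, so of these 3 adaptors DAP10 alone had an abundant message. Tyrobp had 11 and 5 counts in GFP-negative and 6 and 6 in GFP-positive cells of TOXFL cultures. In TOXdeltaN cultures it had 14 and 16 counts against 4 and 2. Its unadjusted p was under 0.05 in both fits, but it passed in neither. Of 14 tested signalling genes, 0 passed (4 at an unadjusted p under 0.05, beside 2920 of the 13329 tested genes). With the block 3 passed, all lower in GFP-positive cells (21.4%, against 6.69% of all tested genes called lower): Plcg1 (log2 -0.32, adjusted p = 0.0168), Pik3r1 (-0.25, 0.026) and Pik3cd (-0.25, 0.045), which act downstream in phospholipase C and PI3-kinase signalling. Their adjusted p without the block ran from 0.0611 to 0.143, and the median of the list with the block was -0.15. TOXdeltaN-positive replicate 2 lay below all other libraries for Pik3cd (691.2 CPM, against 919.6 or more) and Plcg1 (141, against 170.4 or more). Pik3r1 was not lowest there (76.79, against 75.7 in TOXFL-positive replicate 2). How far these calls rest on that library was not tested.

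Ligand genes that passed were lower in GFP-positive cells. Clec2d, whose product is bound by the inhibitory Klrb1 receptors, lay at 2.833 and 3.416 CPM in GFP-negative and 0.9475 and 0.3766 in GFP-positive cells of TOXFL cultures. In TOXdeltaN cultures it lay at 3.285 and 3.223 CPM against 2.29 and 1.679, so negative and positive cells did not overlap for either construct. Clec2d fell by 1.47 on the log2 scale (SE 0.304, adjusted p = 0.042 without the block, lower in 4 of 4 same-numbered pairs), where 2.42% of all tested genes passed. It is a gene of 12 to 97 counts, and the call was lost in 6 of 8 omissions (adjusted p up to 0.174): without TOXFL-negative replicate 1 or 2, TOXFL-positive replicate 2, TOXdeltaN-negative replicate 1 or 2, or TOXdeltaN-positive replicate 2. With TOXFL alone its log2 change was -2.24 (adjusted p = 0.104, and 0.0192 with the block) and with TOXdeltaN -0.71 (0.498). The difference of these effects did not pass (log2 -1.53, 95% interval -2.89 to -0.172, adjusted p = 1).

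Clec2d was the 1 of 7 tested ligand genes to pass without the block. With it 3 of 7 passed, all lower (42.9%, against 6.69% of all tested genes called lower): Clec2d, Clec2i (log2 -0.38, adjusted p = 0.012), whose product is bound by the Klrb1f receptor, and B2m (-0.25, 0.0277), the light chain of class I molecules. H2-T23, the gene of the Qa-1 ligand of CD94 and NKG2A, was abundant at 316.9 to 391.7 CPM, with a log2 change of -0.17 and an adjusted p of 0.155 (0.0745 with the block). Of the NKG2D ligands, Ulbp1 lay at 14.92 to 26.83 CPM with a log2 change of 0.06 (adjusted p = 0.88), H60b had 3 to 25 counts, and Raet1d, Raet1e and H60c had at most 3 counts. Cdh1, the cadherin bound by Klrg1, did not pass for GFP but was lower in libraries numbered 2 (9 to 21 counts) than in number 1 (93 to 145 counts; adjusted p = 0.000675).

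Of 13 NK receptor genes outside the lectin-like family, 12 were tested. Cd160, a receptor for the TNF-family receptor HVEM, lay at 84.77 and 97.3 CPM in GFP-negative and 135.6 and 150.5 in GFP-positive cells of TOXFL cultures, and at 85.99 and 101.7 against 126.4 and 152.5 in TOXdeltaN cultures, without overlap. Its exons overlap those of Pdzk1 on the other strand by 68 bases, and these libraries do not tell strands apart. It rose by a log2 of 0.61 (SE 0.0926, adjusted p = 0.0216), and the call was lost without TOXFL-negative replicate 1 (0.131), TOXFL-positive replicate 2 (0.0881) or TOXdeltaN-negative replicate 1 (0.128) or 2 (0.0732). Cd160 was the 1 of 12 tested genes to pass without the block, against 2.42% of all tested genes. With it 5 of 12 passed (41.7%, against 12.7% of all tested genes). Of these, 3 were higher (6.04% of all), Cd160, Cd244a (log2 0.77, adjusted p = 0.00572) and Tigit (0.41, 0.0119), and 2 were lower (6.69% of all), Cd226 (-0.52, 0.00179) and Slamf6 (-0.26, 0.0153). TIGIT and the activating CD226 share ligands, and in the blocked fit their messages went in opposite directions. Without the block the adjusted p of these 5 genes ran from 0.0216 to 0.272. Neither Tigit nor Cd226 passed there, and the unadjusted p of Tigit was not under 0.05. The most abundant genes of the list were Cd96 (mean 298.4 CPM), Cd27 (251.4) and Slamf6 (132.1). For library number, Tigit (log2 0.55, adjusted p = 0.00735) and Crtam (0.45, 0.00865) were higher in number 2 and Cd226 (-0.32, 0.0353) was lower.

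**Figure D5:**
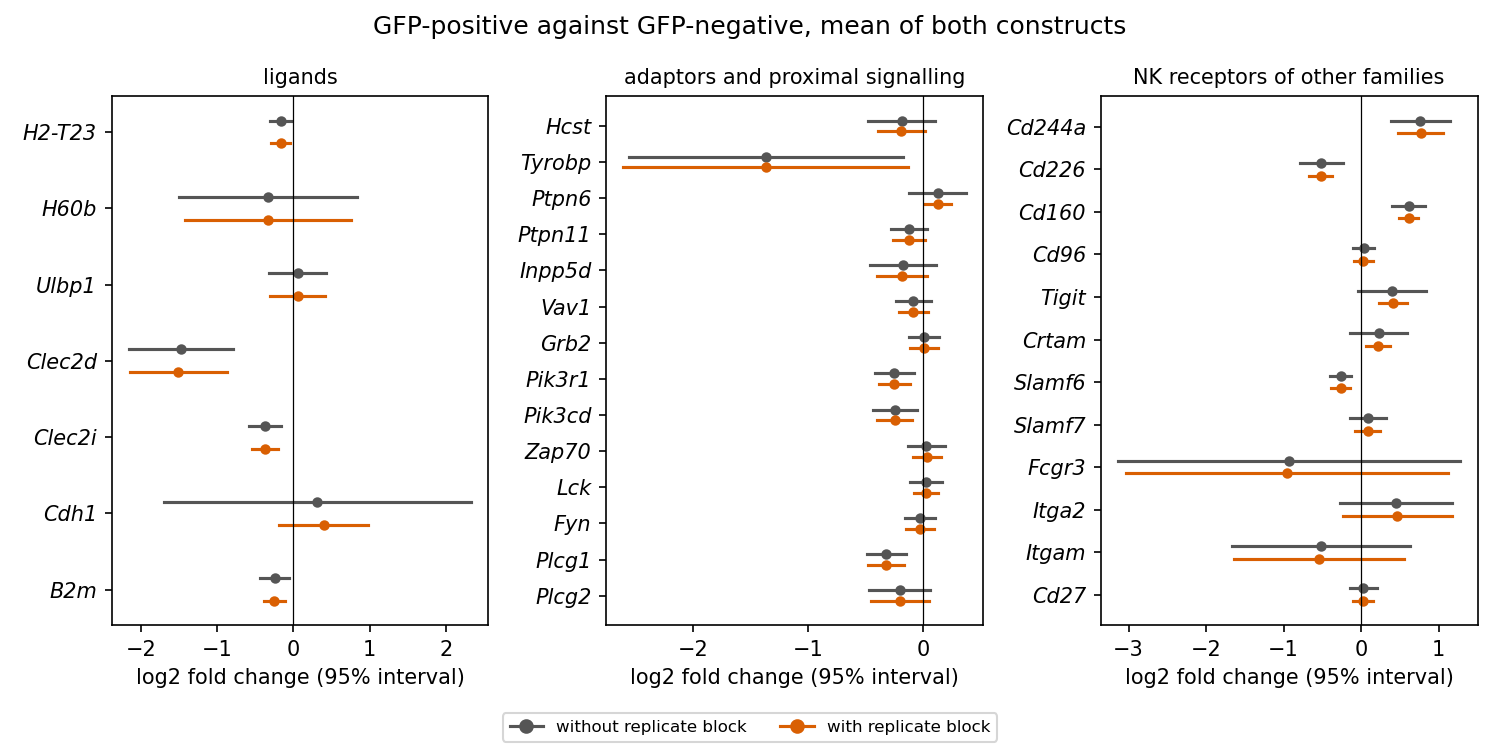
Log2 fold change with 95% interval for the tested ligand genes, signalling genes and NK receptors of other families, GFP-positive against GFP-negative cells, mean of both constructs, without (grey) and with (orange) the library number as a block. Clec2d and Cd160 are the genes that passed without the block, at -1.47 and 0.61.

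Genes linked to terminal effector and NK programmes were led by Il2rb (mean 1190 CPM), the receptor chain shared by IL-2 and IL-15, Nkg7 (1054) and Runx3 (211.8). Genes that go with Klrg1 in terminal effector cells were at mixed levels: S1pr5 had 0 to 2 counts, Cx3cr1 (mean 1.172 CPM) and Zeb2 (1.54) were low, and Tbx21 (149.4) and Id2 (143.2) were abundant. Of 15 tested genes 0 passed without the block (4 at an unadjusted p under 0.05, beside 2920 of the 13329 tested genes). With it 4 passed, all higher in GFP-positive cells (26.7%, against 6.04% of all tested genes called higher): Bhlhe40 (log2 0.54, adjusted p = 0.000968), the death ligand Fasl (0.43, 0.0378), the transcription factor Nfil3 (0.35, 0.0302) and the granule protein gene Nkg7 (0.21, 0.0356). Their adjusted p without the block ran from 0.0632 to 0.0956. Exons of Bhlhe40 overlap an antisense gene by 118 bases. Bhlhe40 also passed in the blocked fit for TOXFL (log2 0.66, adjusted p = 0.00607) and TOXdeltaN (0.43, 0.0397), and by library number (0.35, 0.0125), as did Ccl5 in the other direction (-0.75, 0.00595).

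Of 19 other killer lectin-like receptor genes, 8 were tested and 3 had 0 counts in every library. The most abundant were Klrh1 (mean 16.66 CPM), Klra5 (15.41), a member of the Ly49 family, and Klri2 (8.616). For the mean of both constructs 0 of 8 passed without the block and 0 of 8 with it. At an unadjusted p under 0.05 there were 0 and 1, beside 2920 and 3863 of the 13329 tested genes. Klrh1 was lower in number 2 (log2 -0.61, adjusted p = 0.0182), opposite to Klrk1 and Klrc1.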

How the data were processed

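RNA sequencing libraries of 8 samples took 8 ng of RNA each through SMART-Seq v4 and Nextera XT kits, per the labels' protocols, a chemistry without strand information. The authors deposited RSEM expected counts per gene in whole numbers, made with bcl2fastq 2.20, cutadapt, STAR 2.6.1 and RSEM 1.2.28 on GRCm38, per the submitters' processing notes; the annotation release and the rounding step are not given in the sources used here. The 92 ERCC rows held 0 counts and were left out. Gene positions came from GENCODE M21, in which 31173 identifiers matched with their version.

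The analysis used edgeR 4.0.16 (R 4.3.3): filterByExpr by group with a minimum count of 10 (13329 genes left), TMM scaling, group means over all 8 libraries, quasi-likelihood F-test, Benjamini-Hochberg adjustment and a threshold of 0.05. The fit without the block was tested on simulated data for TOXFL, with log2 changes of 1 or 2 in genes above 8 CPM. The simulation held no effect of library number. It did not cover the blocked fit, receptors below 8 CPM or smaller changes. The biological coefficient of variation was 0.1321, and 0.0958 with the library number as a block. The labels give each group numbers 1 and 2 but not their meaning. Departures from the group mean, correlated across genes between libraries of 1 number, gave 0.168 to 0.241 in all 6 pairs of groups, so the pairing is inferred from the data. Alternatives were the block, RLE factors, no filter, DESeq2 1.42.0, the compared groups alone and leaving out each library.

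The receptors, the lists and the alternatives for single genes were chosen with earlier results of these data known. Genes named besides the receptors are those of each list past the threshold in any comparison in either fit, the 3 most abundant of each list, the 3 most correlated with each receptor of at least 8 CPM, and called genes between Klrb1c and Klrc1; the other genes given with values (Hcst, Tyrobp, Fcer1g, H2-T23, the NKG2D ligands, S1pr5, Cx3cr1, Zeb2, Tbx21, Id2, Klri1, Klrc3) were picked for their role. Log2 CPM for correlations used a prior count of 2. Protein sequences were not used here.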

Additional observations from a re-analysis of the deposited data

How the results depend on the processing

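Of 434 fold changes of the 7 receptors under other settings, 392 kept direction and side of the threshold, 41 changed sign and 1, Klrk1 for the mean of both constructs, passed with the library number as a block, so that 0 receptors called became 1. Part of this agreement follows from the design. Leaving out a library outside the compared groups hardly moves their fold, and 0 receptors lay past the threshold to begin with. The sign changes came from leaving out a library, except for Klrc1 in the difference of the effects, where -0.005419 became 0.002873 with the block and 0.002578 without the filter. The lowest and highest log2 changes over the 8 omissions of receptors that changed sign were as follows. With TOXFL, Klrc1 -0.1052 to 0.3536, Klrc2 -0.2568 to 0.2031, Klrd1 -0.1884 to 0.1217 and Klrb1f -0.7306 to 0.02086 were the ranges. With TOXdeltaN, Klrc1 -0.03966 to 0.2749, Klrd1 -0.1038 to 0.3478, Klrk1 -0.09071 to 0.3824, Klrb1c -1.094 to 0.2359 and Klrb1f -0.405 to 0.2351 were the ranges. For the mean of both constructs, Klrd1 -0.0731 to 0.1531 was the range. For the difference of the effects, Klrc1 -0.2125 to 0.2444, Klrd1 -0.3894 to 0.06136, Klrk1 -0.1444 to 0.3281, Klrb1c -1.027 to 0.3021 and Klrb1f -0.608 to 0.143 were the ranges. Between the negative groups, Klrc1 -0.2999 to 0.1567, Klrd1 -0.2199 to 0.113, Klrk1 -0.2421 to 0.212, Klre1 -0.06379 to 0.2452, Klrb1c -1.152 to 0.1769 and Klrb1f -0.3198 to 0.3208 were the ranges.

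Counts over all genes moved by more than 1.5 times. TOXFL gave 6, and 464 with the block, 678 without the filter, 314 in DESeq2, 2 with its groups alone and 0 to 122 over the omissions. TOXdeltaN gave 4, and 220, 516, 121, 0 and 0 to 1571 in that order. The mean of both constructs gave 323, and 1697 with the block, 1665 without the filter, 1058 in DESeq2 and 5 to 2504 over the omissions. The difference of the effects gave 0, and 45 without the filter, 7 in DESeq2 and 0 to 1 over the omissions, and the negative groups gave 0, 37, 8 and 0 to 1. The cause was not tested. Clec2d and Cd160, whose alternatives were added after the data were seen, kept direction and call with the block, RLE factors, no filter and DESeq2. The blocked Klrk1 call for the mean of both constructs, also added, stayed with RLE factors, no filter and DESeq2. The block changed no other receptor call. Depth limits the 4 low receptors, with at most 110 counts, and 2 libraries per group limit the rest.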
